A study of Glycine max with 12 samples.

Results

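The comparison described here is the material by manganese interaction in soybean (Glycine max) roots, that is, the response to manganese in the material labelled OX3 minus the response in the material labelled W. All 12 libraries of the series enter it. OX3 roots had received 50 µM MnSO4 (3 libraries) or 5 µM MnSO4 as the control (3 libraries), and W roots likewise 50 µM (3 libraries) or 5 µM (3 libraries). The authors' table heads the OX3 columns OX and the W columns WT. What the letters stand for, whether OX3 is a transgenic line or 1 clone, and the age of the plants are not stated in the labels, so no targeted gene could be checked. Of the 43517 genes in the count table, 31841 had enough counts to be tested, and these are the genes described.

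Manganese is an essential micronutrient of plants, needed by the water-splitting complex of photosystem II and by the manganese superoxide dismutase of mitochondria, and it becomes toxic in excess. Roots take it up through broad-range metal transporters, among them members of the NRAMP and ZIP families, and remove an excess by moving it into vacuoles or out of the cell, with metal tolerance proteins known for that role. An interaction asks whether such a treatment changes a gene by the same factor in both materials. A value of 0 on the log2 scale means the same factor, a negative value a lower response in OX3 than in W, and a positive value a higher one.

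Genes are given by identifier, such as Glyma.12G172300, without the ending .Wm82.a2.v1. The 2 digits before the letter G give the chromosome. No identifier could be paired with a gene name or product (0 matched), so neither roles nor root markers can be given for them, and few are named. Total counts per library ranged from 15175866 to 19408318. Levels are in CPM, counts scaled by library total after TMM normalisation. Whether the 3 libraries of a group stem from different plants is not stated. A p-value here therefore sets a difference only against the scatter of these libraries, and that scatter may be technical. In roots sequenced in bulk, a lower level may reflect fewer cells of a type or less RNA per cell, which cannot be told apart. W control replicate 2 had a TMM factor of 1.21, between those of the OX3 controls (1.04 to 1.25) and above the other W controls (0.861 and 0.924), and values without it are given where they matter.

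Glyma.12G172300 had the strongest evidence of a different response to manganese in the materials, though its call depended on the libraries and the fit. It was at 6.33, 7.38 and 5.58 CPM in OX3 at 50 µM, and at 8.9, 9.02 and 7.95 CPM in OX3 at 5 µM. In W it was at 19.0, 19.6 and 17.3 CPM at 50 µM, and at 3.94, 4.49 and 4.7 CPM at 5 µM. No group of 3 libraries overlapped another: the W libraries at 50 µM were the highest of the 12 and the W controls the lowest, with both OX3 groups between them. Over all genes tested, the concentrations did not overlap in OX3 in 21.1% and in W in 24.3%. The log2 response of Glyma.12G172300 was -0.42 in OX3 (adjusted p = 0.32 in edgeR's quasi-likelihood test). In W the gene rose by 2.09 (adjusted p = 0.0068 in the same test). OX3 was below W at 50 µM by a log2 difference of -1.54, and above W at 5 µM by 0.98.

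The interaction of Glyma.12G172300 was -2.51 (SE 0.27; adjusted p = 0.029, edgeR), and this was the 1 gene past the threshold of 0.05, or 0.00314% of the genes tested. The 95% interval from limma-voom ran from -3.13 to -1.93. The call ended without any 1 of the 12 libraries, with adjusted p between 0.0745 and 0.207 in edgeR while the difference stayed between -2.62 and -2.42. Blocking on the replicate number ended it too (-2.47, edgeR adjusted p = 0.549), as did blocking on that number within each treatment (-2.41, edgeR adjusted p = 0.374).

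**Figure D1:**
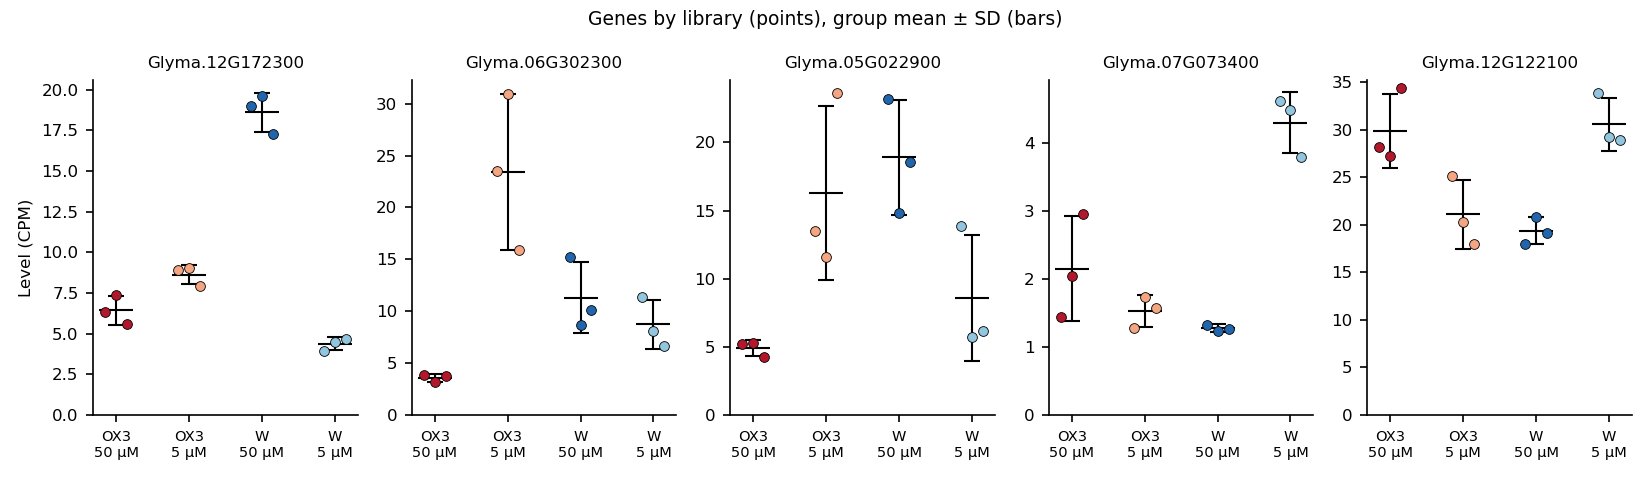
Level in CPM (vertical axis, from 0) of 5 genes in the 12 libraries, with a point per library and bars for the group mean and SD (n = 3). In Glyma.12G172300 the W libraries at 50 µM, between 17.3 and 19.6 CPM, lie above all other libraries, and in Glyma.06G302300 the OX3 libraries at 50 µM, between 3.16 and 3.85 CPM, lie below all others.

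The genes with the next strongest evidence for a lower or a higher response in OX3 did not pass the threshold, and their values are given as a description. Glyma.06G302300 was at 3.85, 3.16 and 3.74 CPM in OX3 at 50 µM and at 23.5, 30.9 and 15.9 CPM in OX3 at 5 µM. In W it was at 15.2, 8.63 and 10.1 CPM at 50 µM and at 11.4, 8.12 and 6.66 CPM at 5 µM. All OX3 libraries at 50 µM lay below all OX3 controls, which were the highest of the 12, whereas the W groups overlapped. Its response was -2.71 in OX3 and 0.37 in W, a difference of -3.08 (SE 0.44; adjusted p = 0.27 in edgeR and 2.5e-06 in DESeq2).

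On the other side, Glyma.07G073400 was at 1.44, 2.05 and 2.96 CPM in OX3 at 50 µM and at 1.28, 1.74 and 1.58 CPM in OX3 at 5 µM. In W it was at 1.33, 1.23 and 1.26 CPM at 50 µM and at 4.61, 4.49 and 3.79 CPM at 5 µM. The W controls stood above all 9 other libraries, and the OX3 groups overlapped. These levels rest on 17 to 103 counts per library. The response was 0.49 in OX3 and -1.75 in W, a difference of 2.23 (SE 0.46, adjusted p = 0.65 in edgeR's test, 0.015 in DESeq2).

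Glyma.12G122100, the second on that side, averaged 29.9 ± 3.9 CPM in OX3 at 50 µM and 21.1 ± 3.6 CPM in OX3 at 5 µM (SD, n = 3 each). In W it averaged 19.4 ± 1.4 CPM at 50 µM and 30.6 ± 2.8 CPM at 5 µM (SD, n = 3 each). Within each material the concentrations did not overlap, and they stood in opposite order, as in 199 (0.625%) of all genes tested. The response was 0.5 in OX3 and -0.66 in W, a difference of 1.17 (SE 0.26, adjusted p = 0.65 in edgeR's test, 0.015 in DESeq2).

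A mirror-image case on the lower side is Glyma.05G022900, chosen after its values were seen as the gene of its kind with the smallest p. It was at 5.22, 5.27 and 4.24 CPM in OX3 at 50 µM and at 13.5, 11.6 and 23.6 CPM in OX3 at 5 µM. In W it was at 23.2, 14.8 and 18.6 CPM at 50 µM and at 13.9, 5.7 and 6.2 CPM at 5 µM. W control replicate 2, at 13.9 CPM, lay close to the W libraries at 50 µM and apart from the other W controls. The difference of -2.85 (SE 0.53, adjusted p = 0.65 in edgeR's test) was -3.39 without that library.

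Over all genes, the size of the log2 response, regardless of sign, had a median of 0.38 in OX3 and 0.42 in W. These sizes include the scatter of the libraries, so they cannot show that the materials responded alike. The median difference was 0.01, a value that TMM scaling tends to hold near 0. The SE of a difference had a median of 0.53 and was between 0.3 and 1.11 in the central 80% of genes. At an unadjusted p under 0.05 in edgeR's test there were 2404 genes, or 7.55%. Of these, 1134 had a higher response in OX3 (3.56%) and 1270 a lower one (3.99%). With no interaction in any gene, a share of about 0.05 would fall under that p. Close to it the adjusted p in edgeR's test was 0.66, so most of the 2404 may be false positives. The numbers by direction depended on single libraries. Without W control replicate 2 there were 1297 higher and 2247 lower, and without OX3 replicate 4 at 50 µM 719 higher and 1042 lower. Higher responses outnumbered lower ones without W control replicate 3 (1132 and 1054), W replicate 2 at 50 µM (1136 and 1067), OX3 control replicate 3 (1396 and 1293) or 4 (951 and 848), or OX3 replicate 2 at 50 µM (1085 and 1084). DESeq2, which called 72 genes (0.226%), 25 higher and 47 lower, shared 70 of its genes with those 2404. Among the 2404, 490 genes were higher and 1050 lower by at least 1 on the log2 scale, as were 1643 and 3509 of all genes tested, so the selected genes were divided much as all genes were. By level, lower responses were the more numerous in the fifth of genes with the lowest levels (76 higher and 346 lower) and in the next (135 and 345). Higher ones were the more numerous in the other 3, with 263 and 228, 397 and 206, and 263 and 145 in order of level.

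A p above the threshold does not show that a gene responded alike, so intervals were counted too. In limma-voom the 95% interval of the difference lay within 1 on the log2 scale on either side of 0 in 5388 genes (16.9%). It excluded 0 in 2120 genes, 3 of which are also among the 5388. For the remaining 24336 genes (76.4%) these libraries set neither limit, the median width of an interval being 2.3. The genes whose interval was within 1 had a median level of 20.6 CPM, against 8.92 CPM over all genes. In the fifth of genes with the lowest levels, from 0.191 to 1.94 CPM, the share was 0%, against 33.3% in the fifth from 13.5 to 32.4 CPM.

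To say how the responses differed, the 2404 genes were sorted by their log2 responses. A response was taken as reversed where it had opposite signs in OX3 and W and a size of at least 0.5 in each. Otherwise it was taken as larger or smaller in OX3 by its size, whatever its sign. By this rule 716 genes (29.8%) had a larger, 1003 (41.7%) a smaller and 685 (28.5%) a reversed response in OX3. Over all 31841 genes the shares were 45.1% larger, 50.6% smaller and 4.33% reversed. Since the same fold changes chose and sorted the genes, these shares are a description and carry no test.

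In 586 of the reversed genes the level was lower at 50 than at 5 µM in OX3 and higher in W, with median responses of -1.32 in OX3 and 1.11 in W. The other 99 went the other way, with medians of 0.72 in OX3 and -0.85 in W. Over all genes tested, 1170 were reversed in the first way and 208 in the other, a like division. The 586 genes had a median level of 2.37 CPM and a median SE of 0.94, so many rest on few counts. Leaving out W control replicate 2 raised their number to 1432, and leaving out OX3 control replicate 4 lowered it to 357. With W control replicate 2 and OX3 replicate 4 at 50 µM both left out it was 1236. The 99 genes became 230 without OX3 control replicate 3, 161 without OX3 control replicate 2, and 152 and 164 without OX3 replicates 2 and 3 at 50 µM.

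Among the 1003 genes with a smaller response in OX3, most were lower at 50 µM in W. Of these, 682 had medians of 0.18 in OX3 and -0.74 in W. The other 321 had medians of -0.19 in OX3 and 0.97 in W, the kind to which Glyma.12G172300 belongs. Over all genes tested the split was less uneven (8923 lower and 7182 higher in W). The 682 and 321 became 345 and 180 when OX3 replicate 4 at 50 µM was left out, and 365 and 200 when OX3 control replicate 4 was. With the trend by gene length described below removed, they became 316 and 198. Genes with a larger response in OX3 were split almost evenly, as over all genes tested (6996 and 7362). There were 353 with medians of 0.61 in OX3 and -0.22 in W, and 363 with medians of -1.16 in OX3 and 0.24 in W. Without W control replicate 4 they numbered 169 and 211. For the 353, leaving out W replicate 1 or 2 at 50 µM gave 220 and 233. Of genes with the same direction in both materials, 78 were higher at 50 µM and larger in OX3, 74 higher and smaller, 87 lower and larger, and 152 lower and smaller. Over all genes tested these numbers were 4717, 4921, 4987 and 5939, and choosing genes by a large difference favours opposite directions.

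**Figure D2:**
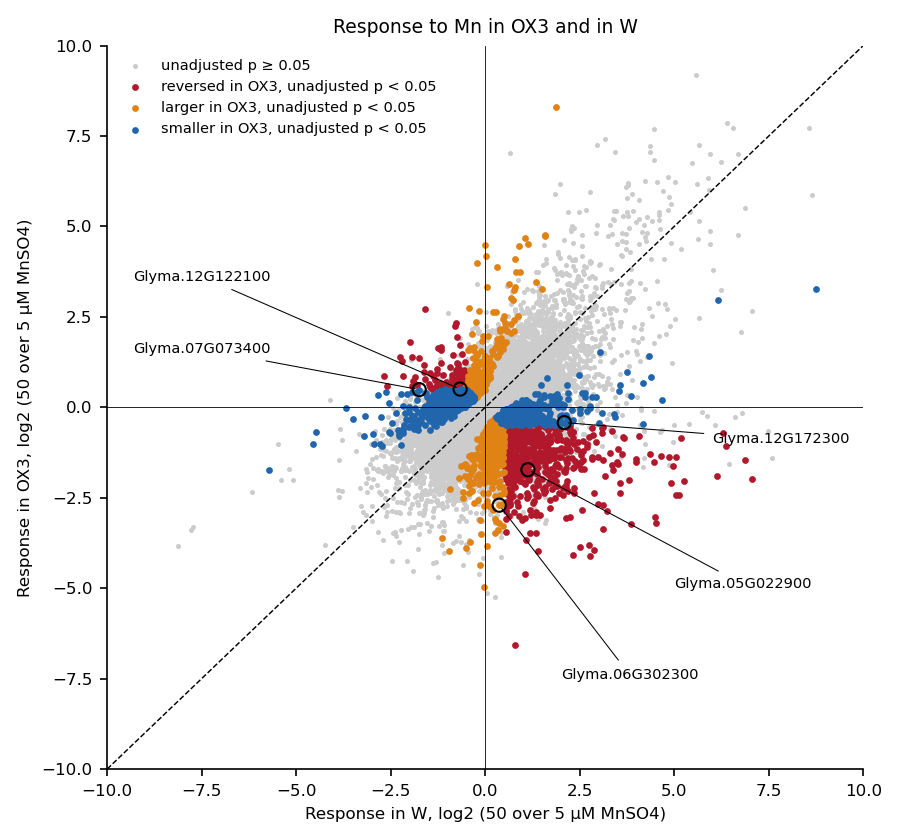
Log2 response to 50 over 5 µM MnSO4 in OX3 (vertical axis) and in W (horizontal axis), with a point per tested gene; the dashed line marks equal responses. Coloured genes had an unadjusted interaction p under 0.05 in edgeR's test, by class, and the 5 named genes are circled. The lower right corner, higher at 50 µM in W and lower in OX3, holds 586 reversed genes, and the upper left corner 99.

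The level of each class in single libraries shows what these counts rest on. For the 586 genes reversed towards a lower response in OX3, the median deviation from a gene's mean log2 CPM was -0.56, -0.43 and -0.72 in OX3 at 50 µM and 0.09, 0.43 and 1.1 in OX3 at 5 µM. In W it was 0.11, 0.83 and 0.57 at 50 µM and -0.08, -0.72 and -0.69 at 5 µM. OX3 control replicate 4 was the highest of all. W replicate 1 at 50 µM and W control replicate 2 differed by 0.11 against -0.08, less than the distance of either from its own group's other libraries.

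Whether a library took part in choosing the genes matters for such values, so each library was also placed on reversed genes chosen from the other 11. On this scale 0 is the mean of the 5 µM libraries of its own material and 1 the mean of the 50 µM libraries, the library itself left out. For the genes reversed towards a lower response in OX3, between 348 and 1380 in number, the OX3 libraries at 50 µM lay at 0.66, 0.2 and 0.94 and the OX3 controls at 0.78, 0.54 and 0.04. The W libraries at 50 µM lay at 0.21, 0.76 and 0.64 and the W controls at 1.37, 0.2 and 0.06. Of the 12 libraries, 7 lay on the side of the midpoint that their label gives. For the genes reversed the other way, between 73 and 228 in number, 3 of the 12 did. The libraries that chose the genes also set 0 and 1, so the midpoint is no mark of chance. These counts are a description and carry no test.

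**Figure D3:**
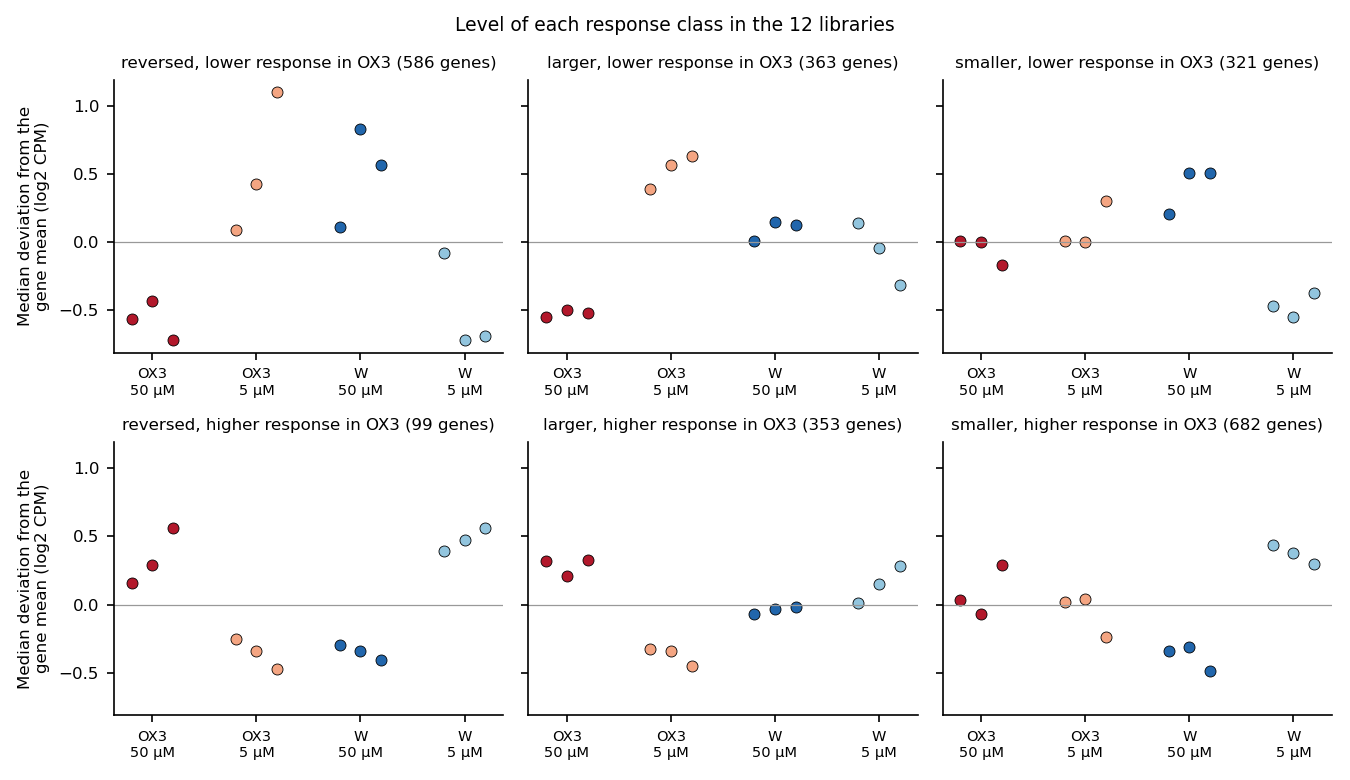
Median deviation from the gene mean in log2 CPM (vertical axis) of the genes of each response class at an unadjusted p under 0.05, with a point per library in the 4 groups. In the 586 reversed genes the W control replicate 2, at -0.08, stands apart from the other W controls at -0.72 and -0.69.

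**Figure D4:**
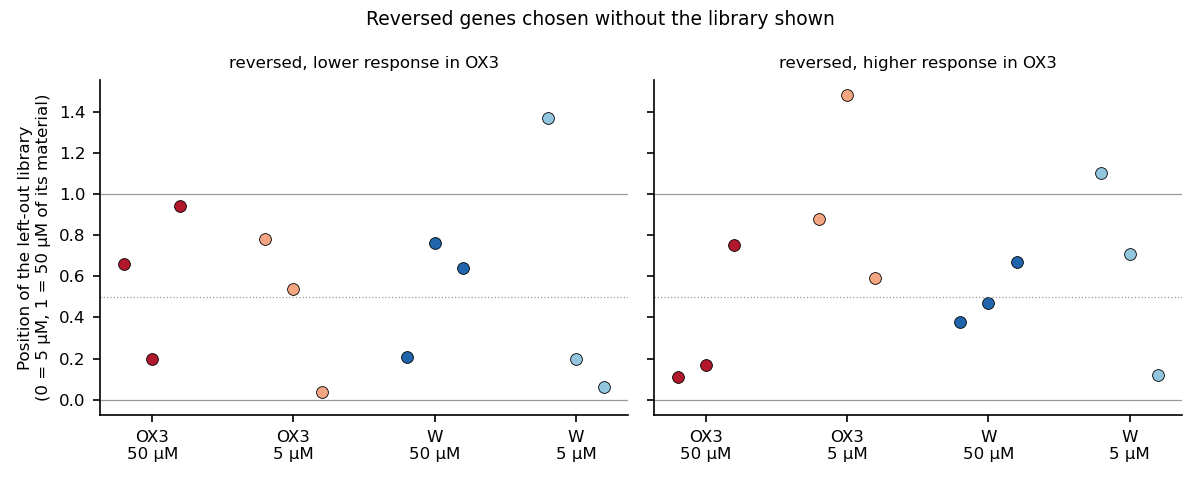
Position of each library (vertical axis, 0 for the mean of the other 5 µM libraries and 1 for that of the other 50 µM libraries of its material) on reversed genes chosen without it, with a point per library and a dotted line at the midpoint of 0.5. On the left 7 of 12 libraries lie on the side of their label and on the right 3 of 12, and W control replicate 2 lies at 1.37 and 1.1. The midpoint is no mark of chance, as the libraries that chose the genes also set 0 and 1.

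The genes with a lower response in OX3 were shorter than those with a higher one. Gene length, recovered from the ratio of counts to FPKM, did not enter the choice of these genes. Its median was 3247 bp for the 1134 genes with a higher response and 1316 bp for the 1270 with a lower one, against 1884 bp over all genes tested. In the fifth with the shortest genes, from 169 to 1217 bp, 55 genes (0.863%) had a higher and 538 (8.44%) a lower response in OX3. In the fifth with the longest, from 2796 to 16968 bp, 707 (11.1%) had a higher and 71 (1.12%) a lower response. The 5 named genes lay on the same sides, the 3 with a lower response at 976, 1210 and 1212 bp and the 2 with a higher one at 2158 and 3159 bp.

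By length, the median response varied less in OX3 than in W. Among the shortest genes it was -0.05 in OX3 and 0.27 in W, and among the longest 0.03 in OX3 and -0.32 in W. By library, the median log2 deviation of the longest genes minus that of the shortest was -0.08, -0.07 and 0.21 in OX3 at 50 µM and 0.02, 0.04 and -0.22 in OX3 at 5 µM. It was -0.24, -0.16 and -0.45 in W at 50 µM and 0.56, 0.19 and 0.16 in W at 5 µM. The W groups did not overlap and the OX3 groups did. W control replicate 2 had the highest value of the 12. Without any 1 library the median length stayed between 2590 and 3496 bp for genes with a higher response and between 1257 and 1583 bp for those with a lower one, in both cases nearest to each other without W control replicate 2.

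The split by length was clear at high levels and weaker at the lowest ones, where lower responses were the more numerous even among the longest genes. In the fifth of genes with the highest levels, at 32.4 CPM or more, the shortest genes included 3 with a higher and 64 with a lower response in OX3, and the longest 177 and 5. In the fifth with the lowest levels these numbers were 19 and 125 among the shortest and 21 and 28 among the longest. With the length trend of each library removed, an alternative added after the data were seen, 609 genes had a higher and 1014 a lower response at an unadjusted p under 0.05, of which 440 and 839 were among those without the correction. Their median lengths were then 1788 and 1750 bp, a closeness that the correction brings about by design. The difference of Glyma.12G172300 became -2.24 (edgeR adjusted p = 0.079). The counts by direction and class above carry this trend. RNA integrity can alter how genes of different length are counted; no measure of it was used here, and its part in the trend was not tested.

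**Figure D5:**
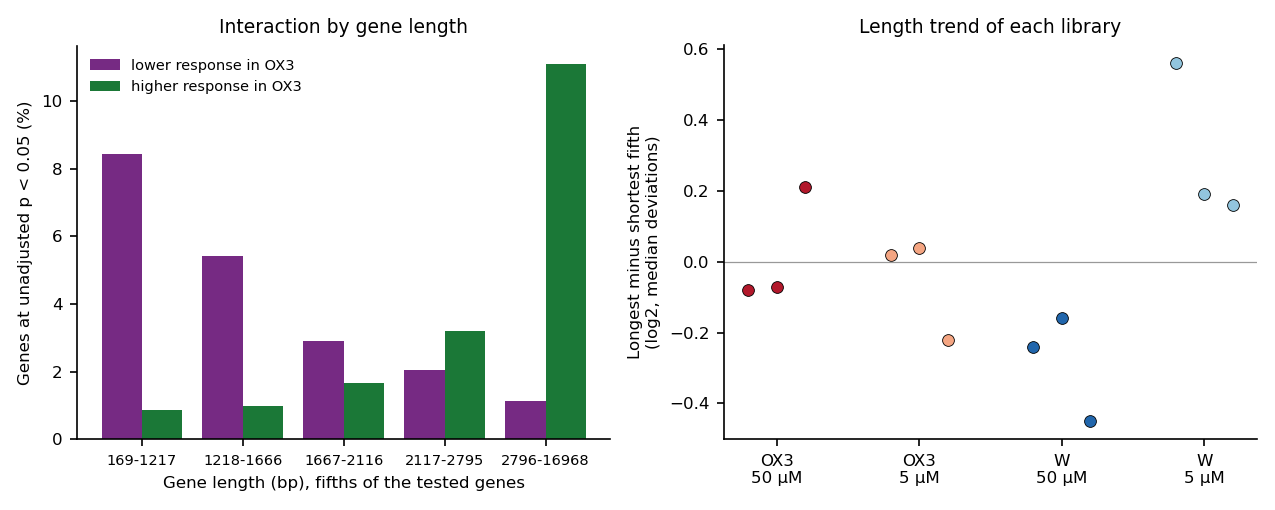
Left, share of tested genes at an unadjusted interaction p under 0.05 (vertical axis, %) by the fifth of gene length (horizontal axis, bp), for lower and higher responses in OX3; the lower ones fall from 8.44% to 1.12% along the axis and the higher ones reach 11.1%. Right, median log2 deviation of the longest minus that of the shortest genes (vertical axis), with a point per library; the W controls lie between 0.16 and 0.56 and the W libraries at 50 µM between -0.45 and -0.16.

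Of the 72 genes called by DESeq2, 45 (62.5%) were reversed, while 17 had a smaller and 10 a larger response in OX3. Of the 45, 39 were lower at 50 µM in OX3 and higher in W. Over all genes tested 4.33% were reversed, 1170 in that way and 208 in the other. Calling genes by a large difference favours opposite directions, so these numbers are a description. Over the 72 genes the difference had a median size of 2.68 and ranged from 0.64 to 8.96 in edgeR's fit. There the value of a gene with a group at 0 counts depends on the prior count. In 33 of the 72 (45.8%) the concentrations did not overlap in either material and stood in opposite order, which over all genes tested held for 199 (0.625%). The same libraries gave the calls and the order, so nothing further is read from that share. The median length was 3159 bp for the 25 genes with a higher response and 1212 bp for the 47 with a lower one. In 2 of the 72 a whole group was at 0 counts, as in 35 of all genes tested (0.11%).

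By chromosome, between 6.63% and 9.31% of the tested genes had an unadjusted p under 0.05 in edgeR's test, the lowest on chromosome 14 and the highest on chromosome 15, where the share over all genes was 7.55%. On chromosome 16 it was 6.73%, and none of the 72 genes called by DESeq2 lay there or on chromosome 18. Of genes with a higher response in OX3, 4.98% were followed in the numbering by another of that kind, and of those with a lower response 5.3%, beside overall shares of 3.56% and 3.99%.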

How the data were processed

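Roots were sequenced in 12 libraries, grouped by sample title. The authors deposited read counts per gene and FPKM. HTSeq 0.6.0, HISAT2 2.1.0, Bowtie2 2.2.3, TopHat2 and CASAVA are listed, with no roles, in the submitters' processing notes. The deposited identifiers name the soybean gene set Wm82.a2.v1. Strand use and the handling of shared reads are not given in the sources used here, so counts of near-identical or overlapping genes are uncertain.

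On the deposited counts, edgeR 4.0.16 (R 4.3.3) fitted its quasi-likelihood model, each group having a coefficient, after filterByExpr (31841 of 43517 genes left) and TMM scaling (factors 0.859 to 1.25). Tests were two-sided, and p-values were adjusted over all genes tested by the Benjamini-Hochberg method. The SE is the fold change divided by the root of F. Gene lengths came from the deposited FPKM (within 1.8e-12 of whole numbers). log2 CPM used a prior count of 2. The procedure was tested on simulated data. DESeq2 1.42.0 and limma 3.58.1 were alternatives. DESeq2 gave no adjusted p for 93 genes, which stay out of its counts. The alternatives are listed with their effect in the closing section.

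Named genes were those past the threshold and the 2 with the smallest p in each direction at a mean of at least 2 CPM. Gene lists by product description had no member, as no identifier matched. The members and lists were chosen with earlier results of these data known. Same-numbered libraries of OX3 and W within a concentration deviated together (r from 0.16 to 0.45 over 5 pairs, across genes). Of all 15 same-numbered pairs 7 had r over 0.1, and those that did not joined libraries of different concentrations. Among the controls, all 6 libraries deviated most like the same-numbered library of the other material (r from 0.26 to 0.45). At 50 µM, W replicate 2 deviated more like OX3 replicate 4 (r = 0.28) than like OX3 replicate 2 (r = 0.16). Pairing within a concentration is therefore a hint from the data, not the labels, and the main fit does not use it. Depth and counting limit the precision of low levels.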

Additional observations from a re-analysis of the deposited data

Results flagged for a closer look

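Glyma.12G172300 is listed since a direct test of the difference between the materials' manganese responses passed the threshold. Its interaction was -2.51 on the log2 scale (edgeR, adjusted p = 0.029 over 31841 genes). Over 28 alternatives, which refit the same libraries or a part of them, the difference lay between -2.62 and -2.24. Its adjusted p was under the threshold in 8 of them. That p ran from 2.86e-16 in DESeq2 to 0.549 with a replicate block in edgeR.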

How the results depend on the processing

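The count of 1 gene past the threshold, with a lower response in OX3, was the same in limma-voom with and without sample weights, with RLE or upper-quartile factors, with a robust estimate of the spread and with at least 1 CPM in 3 libraries. It was 72 in DESeq2 (25 higher, 47 lower) and 68 in DESeq2 without a filter (23 higher, 45 lower). It was 0 in edgeR with library totals only, without a filter on low counts, with the replicate block, with the replicate block within treatment, with the length trend removed, without W control replicate 2 and OX3 replicate 4 at 50 µM together, and in limma-trend on log2(FPKM + 1) or log2(FPKM + 0.1). In these 8 fits between 1623 and 2999 genes had an unadjusted p under 0.05. Without any 1 library the count was 0 in all 12 fits, with 1761 to 3544 genes at that p. The 5 named genes kept their sign in all 28 alternatives. They were chosen for a small p in the same libraries, so a change of sign was unlikely from the start. Glyma.07G073400 was at 1.09 on the log2(FPKM + 1) scale.

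Numbers by class depend on the rule. In the order larger higher, larger lower, smaller higher, smaller lower, reversed higher and reversed lower, a minimum of 0.25 for reversed gave 195, 188, 440, 191, 499 and 891 genes. A minimum of 1 gave 568 larger lower, 12 reversed higher and 245 reversed lower, the others staying within 1.5 times. Without any 1 library the 6 numbers ran from 169 to 505, 211 to 429, 345 to 790, 180 to 423, 79 to 230 and 357 to 1432. Without W control replicate 2 and OX3 replicate 4 at 50 µM together, 531 were larger higher, 341 smaller higher and 1236 reversed lower. With the length trend removed, 212 were larger higher, 316 smaller higher and 198 smaller lower. With sample weights, 3187 limma-voom intervals excluded 0. The cause of these shifts was not tested.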
